A study of Homo sapiens with 17 samples.

Results

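H3K36me3 was profiled by ChIP-seq in HCC1954 cells of 2 arms, NC1235 and Si1235, with 2 libraries per arm (4 of the 17 samples of the series). HCC1954 is a human breast cancer cell line with amplified ERBB2, the gene of the HER2 receptor. All cells of both arms were transfected with antisense oligonucleotides and fixed with formaldehyde 72 h later, so the comparison is between 2 transfected arms and holds no untransfected sample. The series concerns the long non-coding RNA LINC01235, and the labels give NC1235 and Si1235 as genotypes without spelling out NC and Si or giving the oligonucleotide sequences. The members were the bodies of protein-coding RefSeq genes (GRCh38.p14, the assembly called hg38) of at least 2.0 kb on chromosomes 1 to 22 and X, annotated start to end. For each library the percent of each body covered by the authors' peaks was computed. Of 18727 bodies, the 8351 whose cover averaged 5% or more in the 4 libraries were tested. The results describe genes by function where both libraries of one arm lay above both of the other, and "higher" and "lower" below mean that, for Si1235 against NC1235. Cover is measured in bulk chromatin, in which more cells with the mark and more of the mark per cell cannot be told apart. The labels do not say that the replicates came from separate cultures, so a p-value here rests on the spread among single libraries, and that spread may be technical.

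H3K36me3 is the trimethylation of lysine 36 of histone H3, placed by SETD2, an enzyme that travels with elongating RNA polymerase II. The mark therefore lies over the bodies of transcribed genes, usually thin at the promoter and denser towards the end of the gene. It is read by proteins such as PSIP1 and DNMT3B and removed by KDM4 demethylases. Cover by peaks measures how far along a body the signal passed the peak caller's threshold, not how strong the signal was, and a body already covered nearly whole can show little increase.

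Lists held 67302 and 71041 peaks in NC1235 against 74826 and 81320 in Si1235. They covered 144 and 118 Mb in NC1235 and 141 and 124 Mb in Si1235. Both Si1235 lists held more peaks, while the covered lengths overlapped (two-sided exact permutation test, p = 0.333 for the number and p = 1 for the length; 0.333 is the smallest p that 2 libraries against 2 allow). Replicate 1 covered more of a body than replicate 2 in 91.4% of tested bodies in NC1235 and in 84.2% in Si1235, so the number of the replicate moved with cover in both arms. The lists give no total read counts. The background solved from their weak peaks was 2.33 and 1.65 reads per position in NC1235 against 1.90 and 0.788 in Si1235, lower in replicate 2 of both arms as cover was, and its part in the counts was not tested. Markers of HER2-positive epithelial cells were covered at a mean of at least 5% in 8 of 8 genes, from 10.9% for KRT8 to 89.9% for ELF3, with summed covers of 488 to 522 in the 4 libraries. The 4 immune markers measured were at 0 in all libraries, as were 4 of 5 mesenchymal markers; FN1, the fibronectin gene, was at 92.0%. Of 4 endothelial markers, KDR and TEK were at 0, PECAM1 had a mean cover of 17.3%, and CDH5, below the 5% minimum, was at 0 in both NC1235 libraries and at 5.996% and 6.77% in Si1235. The body of LINC01235 itself (chr9:13406380-13431329) held 0 H3K36me3 peaks in each library, so the mark does not check the labels at the targeted gene. Its neighbour NFIB, a transcription factor gene, had covers of 16.0% and 12.5% in NC1235 against 14.7% and 12.3% in Si1235, with overlapping arms.

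The arms overlapped over most bodies and stood far apart over few. Both libraries of Si1235 were above those of NC1235 in 1693 of 8351 bodies (20.3%) and below both in 1147 (13.7%), together 2840 (34.0%). Of these 59.6% were higher, and 45.0% after quantile normalization. Were the 4 libraries exchangeable, a share of 0.333 of bodies would separate by order alone. The count of separated bodies is near that share, and does not by itself show that these bodies differ. The libraries were not exchangeable, as replicate 1 covered more in 91.4% of bodies in NC1235 and 84.2% in Si1235. The share to expect without a difference between arms is therefore not known. Without NC1235 replicate 1 the higher bodies numbered 5050, and without NC1235 replicate 2 the lower ones 4121, so each count depends on single libraries. The median difference over all tested bodies was 0.69 percentage points. The difference between arms had a median size of 3.43 points, smaller than the median difference between replicates, 6.11 points in NC1235 and 4.10 in Si1235. In 192 bodies (2.3%) the lowest Si1235 library lay at least 10 points above the highest NC1235 library, and in 80 (0.958%) the highest Si1235 library lay at least 10 points below the lowest NC1235 library. Of these 70.6% were higher, but 27.9% without NC1235 replicate 2 and 42.4% without Si1235 replicate 1. Leaving out 1 library gave up to 1053 higher (without NC1235 replicate 1; 686 without Si1235 replicate 2) and up to 552 lower (without NC1235 replicate 2; 310 without Si1235 replicate 1). The larger separations fell in 182 and 79 places of the genome respectively, counting bodies within 10 kb of each other once. Limma with Benjamini-Hochberg adjustment over the 8351 bodies called 0 at an adjusted p under 0.05 (0.0% of bodies), with a lowest adjusted p of 0.0754. At an unadjusted p under 0.05 it gave 663 bodies, 460 higher (5.51%) and 203 lower (2.43%). Restricted to the 6673 tested bodies of at least 10 kb, the same test called 27 higher (0.405%) and 5 lower (0.0749%). That restriction is 1 of several alternative settings given at the end, and none of the 32 passed over all 8351 bodies. The replicates moved the general direction. Comparing the replicates numbered 1 gave a median difference of -0.21 points, and comparing those numbered 2 gave 1.63.

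**Figure D1:**
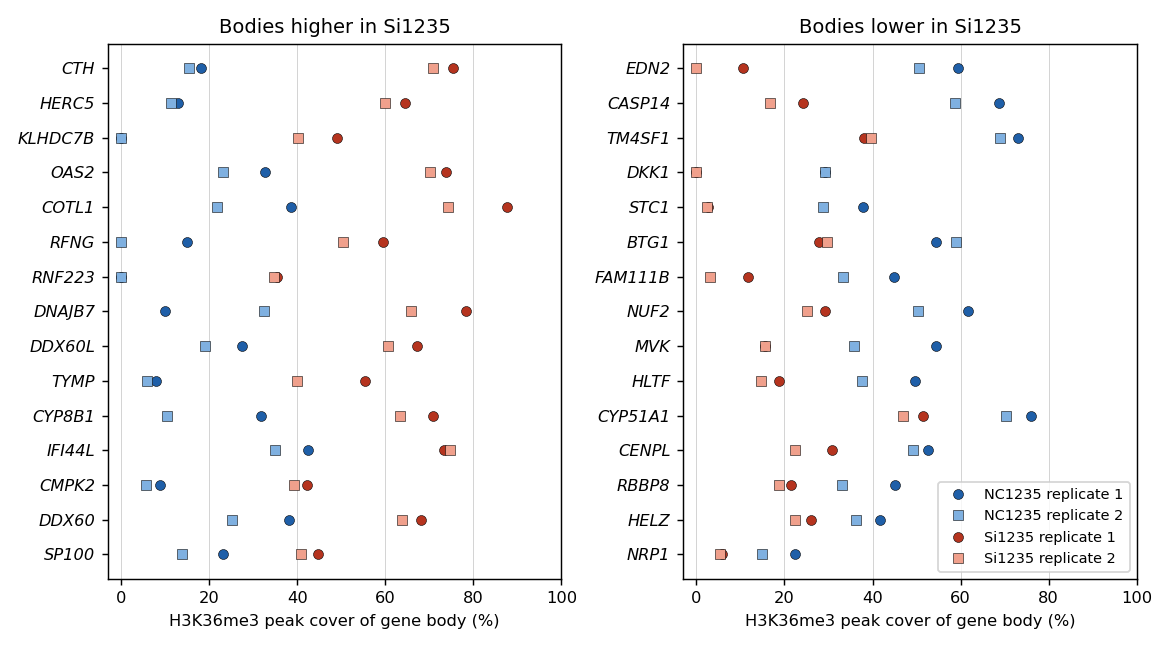
Percent of the gene body covered by H3K36me3 peaks (horizontal axis) in each of the 4 libraries for the 15 bodies named for the widest separation in each direction. Circles are replicate 1 and squares replicate 2. In CTH the NC1235 libraries lie at 18.2% and 15.5% and the Si1235 libraries at 75.4% and 70.9%. In EDN2 they lie at 59.4% and 50.6% against 10.5% and 0.

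The widest separation of any tested body was over CTH (chr1:70411268-70439851), which encodes cystathionine gamma-lyase, the enzyme that releases cysteine from cystathionine. Its cover was 18.2% and 15.5% in NC1235 against 75.4% and 70.9% in Si1235. Both Si1235 libraries were thus far above both NC1235 libraries, by 56.3 points on average (SE 6.10), with a limma adjusted p of 0.0754 over all bodies and 0.00291 over bodies of at least 10 kb. In NC1235 the mark over CTH was broken into 8 and 7 peaks, the longest 1.18 and 1.07 kb. In Si1235 there were 10 and 12 peaks, the longest 7.68 and 6.99 kb.

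Genes induced by interferon were covered further in Si1235. Interferons signal through receptor chains, JAK kinases and STAT and IRF factors to switch on effectors that sense, degrade or block viral RNA. The list held 36 tested effectors and, like the other lists, was chosen with earlier results of these data known. Some effectors lie close together, such as IFIT1 and IFIT5, and are not independent. Si1235 was higher without overlap in 32 of them, against 20.3% of all tested bodies, and below in 0, against 13.7%. The median difference was 17.8 points, beside 0.69 over all bodies. At least 10 points higher were 19 effectors, beside 2.3% of all tested bodies. In limma, 24 of the 36 had an unadjusted p under 0.05, all higher in Si1235, beside 5.51% of all tested bodies. None passed after adjustment over all bodies.

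HERC5 (chr4:88457119-88506163), the ligase that attaches the ubiquitin-like protein ISG15 to its targets, was covered at 13.0% and 11.3% in NC1235 against 64.6% and 60.1% in Si1235 (50.2 points, SE 5.87). OAS2 (chr12:112978519-113011723), which makes the 2-5A messenger that activates RNase L, was at 32.7% and 23.2% in NC1235 against 73.9% and 70.2% in Si1235. IFIT1, which binds foreign RNA by its 5' end, was at 17.5% and 12.3% in NC1235 against 58.3% and 48.7% in Si1235. In each of these 3 genes the arms were separated by more than any difference between replicates. IFI44L, an interferon-induced gene of the IFI44 pair, was at 42.4% and 34.9% in NC1235 against 73.4% and 74.7% in Si1235. CMPK2, a mitochondrial nucleotide kinase, was at 8.82% and 5.68% in NC1235 against 42.3% and 39.4% in Si1235. SAMD9L, a restriction factor of poxviruses, was at 13.6% and 7.23% in NC1235 against 44.7% and 43.9% in Si1235. In all 3 the separation exceeded 30 points. Longer genes were among the most separated too, such as the helicase-like genes DDX60 and DDX60L, both over 100 kb. DDX60 was at 38.2% and 25.2% in NC1235 against 68.0% and 63.9% in Si1235, and DDX60L at 27.4% and 18.98% in NC1235 against 67.1% and 60.5% in Si1235. SP100 (chr2:230416201-230545606), a scaffold of nuclear bodies, was at 23.3% and 14.0% in NC1235 against 44.6% and 40.8% in Si1235. OASL, a relative of the OAS enzymes, was at 0 in both NC1235 libraries and at 28.2% and 17.7% in Si1235. Over the bodies of at least 10 kb, 9 of 30 effectors passed limma, all higher, beside 27 of 6673 bodies (0.405%). They were HERC5, OAS2, IFIT1, HERC6, IFI44L, SAMD9L, CMPK2, XAF1 and OASL. Their limma adjusted p-values ran from 0.00291 for HERC5 to 0.0432 for XAF1. None of the 9 passed over all 8351 bodies.

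The effectors whose arms overlapped were IFI6, PML, GBP1 and GBP2. GBP2, a guanylate-binding GTPase, was at 71.0% and 48.7% in NC1235 against 51.2% and 51.9% in Si1235. TRIM25, the ligase that acts on the RNA sensor RIG-I, was at 90.5% and 90.9% in NC1235 against 92.1% and 91.9% in Si1235. Of 6 tested sensors, 3 were higher and 0 lower, beside 20.3% and 13.7% of all bodies. RIGI, which detects RNA with a triphosphate end, was at 69.1% and 62.8% in NC1235 against 84.0% and 78.0% in Si1235. IFIH1, which detects long double-stranded RNA, was at 65.2% and 55.7% in NC1235 against 74.7% and 76.4% in Si1235.

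The signalling genes between receptor and effector were mixed. Of 13 tested, 5 were higher (38.5%) and 2 lower (15.4%), beside 20.3% and 13.7% of all bodies. The lower share is near that of all bodies. The median difference was 2.47 points. The 2 lower genes were the receptor chains IFNAR1 and IFNGR1, both at least 10 points apart. IFNAR1 was at 50.5% and 48.5% in NC1235 against 36.2% and 32.4% in Si1235, and IFNGR1 at 81.2% and 75.2% in NC1235 against 64.7% and 64.2% in Si1235. Genes of MHC class I presentation, many of them interferon targets too, were higher in 7 (41.2%) and lower in 1 (5.88%) of 17. NLRC5, the activator of class I genes, was the most separated, at 2.65% and 2.25% in NC1235 against 19.2% and 12.9% in Si1235.

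Promoters of the effectors are shown because ISG promoters are known for the interferon-stimulated response element. The letters GAAA, any pair of bases and GAAA again, on either strand and overlaps counted, were looked for in the 250 bases before the gene start of the RefSeq promoter table (GRCh38.p14). Of the 36 tested effectors 18 had an entry, and 11 of these held the letters (61.1%), against 709 of 22114 promoters of the table (3.21%) and 131 of 5047 tested bodies with an entry (2.60%). Of bodies at least 10 points higher, 12 of 107 with an entry held them (11.2%), and of those at least 10 points lower, 0 of 50. The 12 include the effectors IFIT1, IFIT5, IFI44L, HERC5, SAMD9 and DDX60, already counted above. At the 2.60% share of tested bodies, 50 promoters would hold few matches in any case, so 0 of 50 is near that share. The 150 bases before the start of 4 effectors are printed from 5' to 3' on the gene's strand, with each match in capitals (TTTC on the reverse strand). They were chosen among the matching effectors with the widest separations. IFI44L, further apart than DDX60 (25.7 points) and SAMD9 (13.4 points), was not printed. Of the other matching effectors, IFI44L and IFIT5 were 31.0 and 12.5 points apart, OAS3 5.10, BST2 1.52 and PARP14 0.27. The arms of IFI6, with 3 matches, and GBP1 overlapped. SAMD9L and HERC6 had an entry and no match and were 30.3 and 28.0 points apart. HERC5 (chr4:88456969-88457118, plus strand) and IFIT1 (chr10:89392473-89392622, plus strand) carry reverse matches, 3 and 2. DDX60 (chr4:168318753-168318902, minus strand) carries 2 forward matches and SAMD9 (chr7:93117980-93118129, minus strand) carries 1. The table's start was the annotated 5' end of the body in 17 of the 18 effectors; in DDX60 it lay 7.23 kb inside the body used for cover, and so does the printed stretch. The match is a description of the letters.
HERC5: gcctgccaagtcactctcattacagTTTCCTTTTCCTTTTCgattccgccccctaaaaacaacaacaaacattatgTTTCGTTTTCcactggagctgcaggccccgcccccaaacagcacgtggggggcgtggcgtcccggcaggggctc
IFIT1: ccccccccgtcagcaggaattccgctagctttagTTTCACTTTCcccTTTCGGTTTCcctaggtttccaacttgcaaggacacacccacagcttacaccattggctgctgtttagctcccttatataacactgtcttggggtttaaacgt
DDX60: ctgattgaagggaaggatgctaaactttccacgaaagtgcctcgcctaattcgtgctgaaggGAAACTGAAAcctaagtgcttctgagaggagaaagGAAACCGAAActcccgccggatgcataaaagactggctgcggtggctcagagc
SAMD9: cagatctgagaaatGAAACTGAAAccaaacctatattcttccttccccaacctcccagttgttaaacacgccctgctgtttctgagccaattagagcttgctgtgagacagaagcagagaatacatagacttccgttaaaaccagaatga

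**Figure D2:**
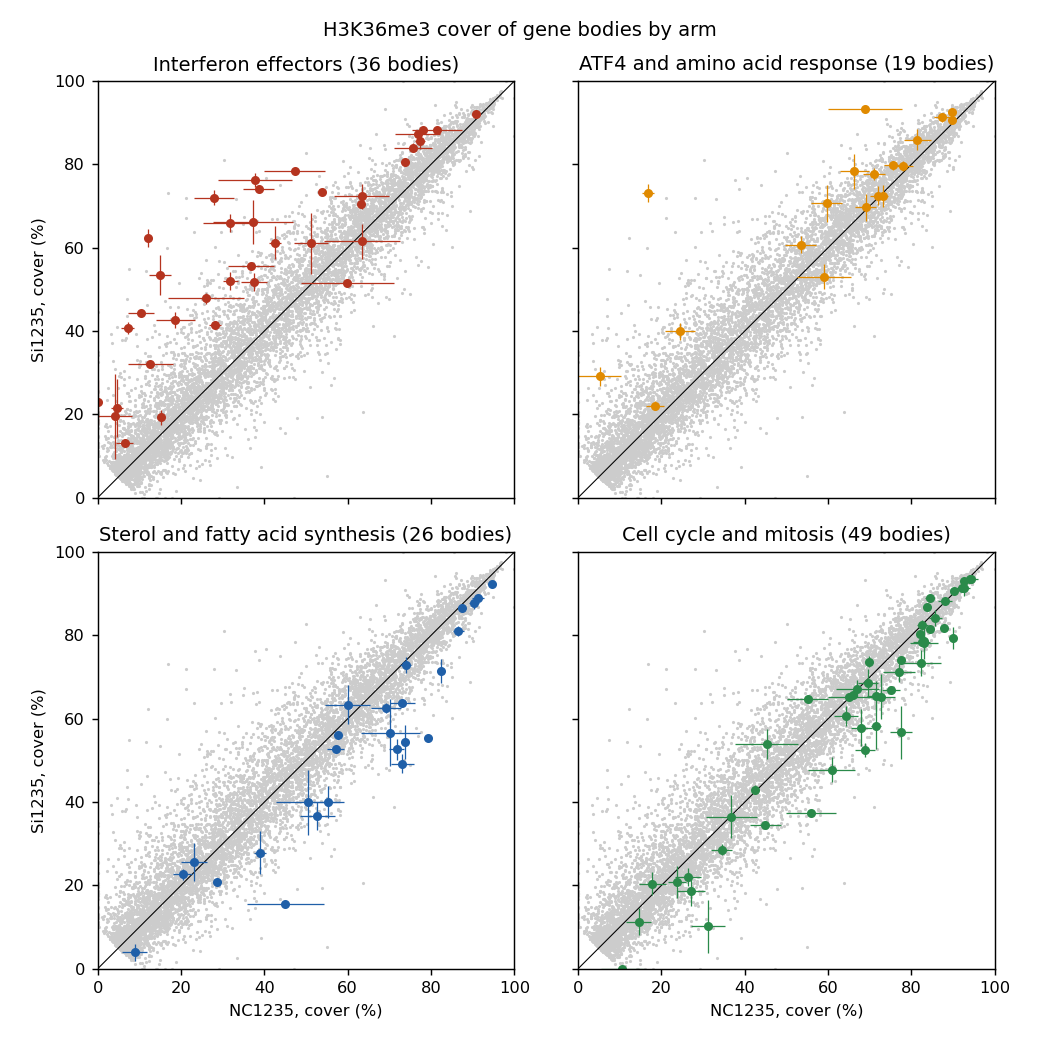
Mean H3K36me3 cover in NC1235 (horizontal) and Si1235 (vertical) for all 8351 tested bodies (grey) and for the members of 4 gene lists (coloured). Bars run from the lower to the higher library of each arm, and the line marks equal cover. Of 36 interferon effectors 32 lie above the line with arms that do not overlap, and of 26 sterol and fatty acid genes 18 lie below it.

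Genes of the ATF4 program were also mostly higher. ATF4 is a transcription factor made when amino acids run short or proteins misfold, and it drives genes for amino acid synthesis and import. Of 19 tested members 13 were higher and 0 lower, beside 20.3% and 13.7% of all bodies, with a median difference of 4.17 points. Besides CTH, 2 members were at least 10 points apart, which makes 3 of 19, beside 2.3% of all tested bodies at least 10 points higher. ATF5, an ATF4-related factor, was at 10.3% and 0 in NC1235 against 31.5% and 26.8% in Si1235. GPT2, a mitochondrial alanine transaminase, was at 77.7% and 59.998% in NC1235 against 94.2% and 92.4% in Si1235. Its limma adjusted p was 0.0153 over bodies of at least 10 kb, and it did not pass over all bodies. The separation was wide in these 3 and narrower in the rest. SLC7A11, the cystine importer, was at 28.0% and 20.8% in NC1235 against 41.9% and 37.9% in Si1235. ATF4 itself was at 74.1% and 70.0% in NC1235 against 74.9% and 70.2% in Si1235, with overlapping arms. The same was true of CHAC1, which degrades glutathione, and SHMT2, the mitochondrial serine hydroxymethyltransferase. The letters TGATGNAAN, a form of the element bound by ATF4 dimers, were found on either strand in 1 of 9 members with a promoter entry (CHAC1), against 3.34% of the table.

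Some other genes among the bodies at least 10 points higher were chosen here after their values were seen, as examples and not as a group. PYCR1, which makes proline, was at 33.4% and 18.6% in NC1235 against 60.2% and 54.1% in Si1235. SLC6A9, a glycine transporter, was at 35.6% and 23.5% in NC1235 against 68.0% and 59.5% in Si1235. GCAT, which acts in threonine breakdown, was at 9.28% and 0 in NC1235 against 55.4% and 26.5% in Si1235. All 3 bodies were under 40% in both NC1235 libraries and the GCAT replicates of Si1235 differed widely. CEBPG, a partner of ATF4 in dimers, was at 37.7% and 32.0% in NC1235 against 55.2% and 56.1% in Si1235. GDF15 and NUPR1, both induced by cell stress, were at 33.5% and 43.1% and at 21.4% and 13.6% in NC1235. In Si1235 GDF15 was at 69.1% and 63.6% and NUPR1 at 47.1% and 38.9%. The tRNA synthetases, which load amino acids onto tRNAs, were higher in 9 and lower in 1 of 20 (median difference 2.84 points). The shares of all bodies were 20.3% and 13.7%. Of them CARS1, the cysteinyl enzyme, was the most separated, at 80.3% and 74.1% in NC1235 against 89.0% and 86.5% in Si1235. Genes of the unfolded protein response were higher in 9 (47.4%) and lower in 0 of 19 (median difference 2.04 points). DNAJB9, a chaperone of the endoplasmic reticulum, was at 32.6% and 27.6% in NC1235 against 41.8% and 54.2% in Si1235.

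The opposite direction was clearest in sterol and fatty acid synthesis. Cells make cholesterol through the mevalonate pathway, whose genes are driven together by SREBF2, and fatty acids through ACACA and FASN under SREBF1. Of 26 tested genes 18 were lower and 0 higher in Si1235, beside 13.7% and 20.3% of all bodies, with a median difference of -7.14 points. The most separated was INSIG1 (chr7:155297878-155310235), which holds the SREBF proteins back in the endoplasmic reticulum. Its cover was 78.3% and 80.2% in NC1235 against 54.5% and 56.3% in Si1235 (SE of the difference 4.15, limma adjusted p = 0.147). With peaks joined over gaps of up to 3 kb the INSIG1 difference was -4.13 points in place of -23.9. A single INSIG1 piece of 9.67 and 9.92 kb in NC1235 was split into 3 in each Si1235 library, the longest 4.06 and 3.68 kb. The letters TCACNCCAC, a form of the sterol response element, were found on either strand in 1 of 13 members with a promoter entry (SREBF2), against 0.891% of the table.

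Along the mevalonate pathway, HMGCS1, a synthase of its early steps, was at 74.5% and 72.8% in NC1235 against 58.6% and 50.3% in Si1235. MVK (chr12:109573272-109598125), mevalonate kinase, was at 54.4% and 35.8% in NC1235 against 15.6% and 15.7% in Si1235. The replicates of Si1235 were close in MVK, which showed the widest drop of the pathway. In the later sterol steps, CYP51A1 (chr7:92112153-92134803), the lanosterol demethylase, was at 75.9% and 70.3% in NC1235 against 51.4% and 47.0% in Si1235. MSMO1, the methylsterol monooxygenase, was at 73.5% and 70.0% in NC1235 against 55.2% and 50.1% in Si1235. When peaks were joined over gaps of up to 3 kb the difference of MSMO1 changed sign, to 0.987 points (limma adjusted p = 0.839). In that setting short gaps no longer count as uncovered. In the fatty acid branch, ACACA, acetyl-CoA carboxylase, was at 56.9% and 48.6% in NC1235 against 39.9% and 33.2% in Si1235. FASN, fatty acid synthase, was almost fully covered, at 94.9% and 94.3% in NC1235 against 92.4% and 92.2% in Si1235. Arms overlapped in 8 genes, among them SREBF1 and SCAP, the escort protein of the SREBF proteins, while SREBF2 was at 72.8% and 65.6% in NC1235 against 63.7% and 61.5% in Si1235. ACAT2, the cytosolic thiolase of the same pathway, is outside the list. It passed limma among bodies of at least 10 kb (adjusted p = 0.0472) but not over all bodies (adjusted p = 0.273). It was at 91.5% and 78.5% in NC1235 against 65.3% and 55.2% in Si1235.

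**Figure D3:**
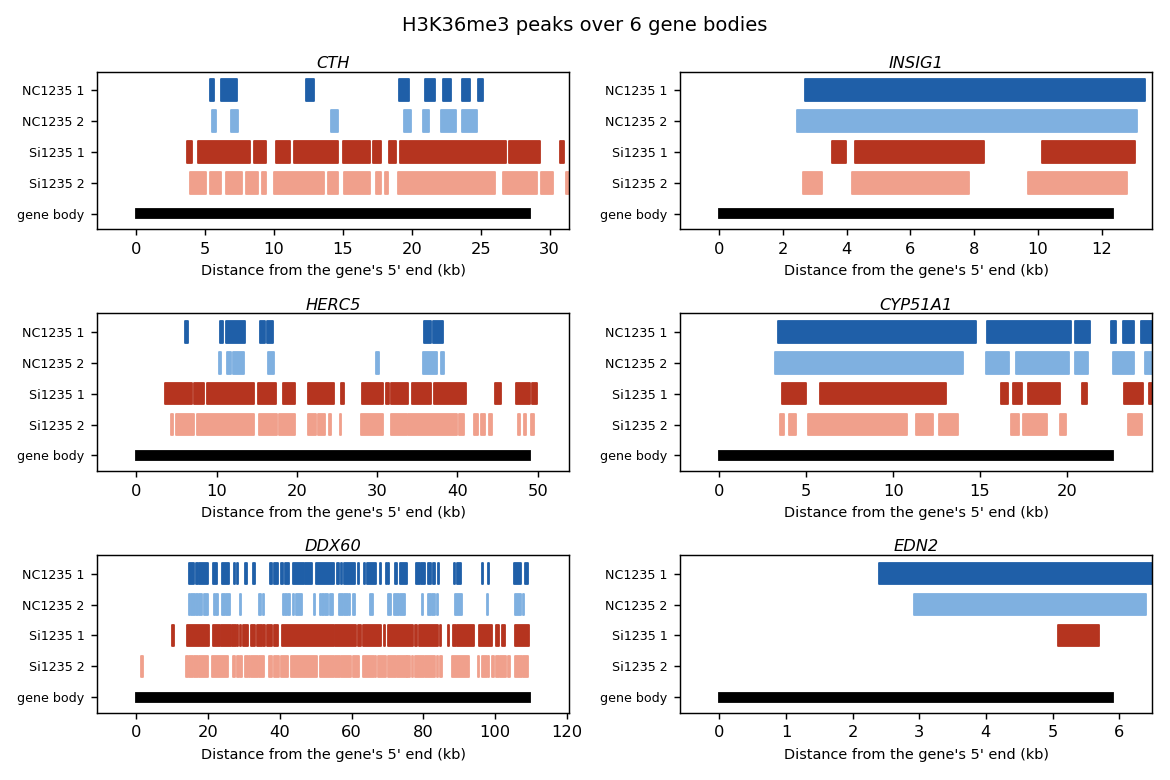
H3K36me3 peaks of each library (coloured bars) over 6 gene bodies (black bar), by distance from the gene's 5' end in kb, drawn a little beyond each end. In CTH, HERC5 and DDX60 the Si1235 bars fill most of the body where the NC1235 bars are short. INSIG1 holds 1 piece in each NC1235 library and 3 in each Si1235 library, and EDN2 holds none in Si1235 replicate 2.

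Many cell cycle and mitosis genes were lower in Si1235. Of 49 tested 21 were lower and 4 higher, beside 13.7% and 20.3% of all bodies, with a median difference of -3.24 points. Without NC1235 replicate 2 the lower ones numbered 37, and without NC1235 replicate 1 the higher ones 14. CDK1, the kinase that drives entry into mitosis, was at 80.2% and 74.9% in NC1235 against 63.1% and 50.3% in Si1235. CDK2, the S phase kinase, was at 35.3% and 27.01% in NC1235 against 16.6% and 3.76% in Si1235. CENPE, a kinetochore motor, was at 61.9% and 49.9% in NC1235 against 37.6% and 37.3% in Si1235. In these 3 the arms were well apart, though the CDK1 and CDK2 replicates of Si1235 differed by over 10 points. ASPM, a spindle pole protein, was at 71.2% and 66.4% in NC1235 against 54.2% and 50.8% in Si1235. These 4 were the members at least 10 points lower, beside 0.958% of all tested bodies. Others overlapped or were near the ceiling, such as AURKA, a spindle pole kinase, at 94.2% and 93.9% in NC1235 against 93.5% and 93.3% in Si1235. The higher members were CCND1, CCNE1, CDK4 and SMC1A. CCNE1, cyclin E1, was at 59.9% and 50.2% in NC1235 against 65.5% and 63.9% in Si1235.

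Outside that list, NUF2 (chr1:163321954-163355759), a kinetochore protein, was at 61.8% and 50.3% in NC1235 against 29.3% and 25.0% in Si1235. CENPL, a centromere protein, was at 52.6% and 49.3% in NC1235 against 30.9% and 22.4% in Si1235. FAM111B, a protease gene, was at 45.0% and 33.3% in NC1235 against 11.7% and 3.12% in Si1235. Its limma adjusted p was 0.0108 among bodies of at least 10 kb and 0.166 over all bodies. These 3 were below 35% in both Si1235 libraries. RBBP8, a factor of DNA end resection, was at 45.1% and 33.0% in NC1235 against 21.6% and 18.8% in Si1235. HLTF, a DNA translocase that acts at stalled forks, was at 49.6% and 37.7% in NC1235 against 18.7% and 14.8% in Si1235. All 5 of these bodies were longer than 20 kb and had arms at least 10 points apart.

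The series title concerns replication licensing factors, which load the MCM helicase on origins. Of 29 tested licensing and firing genes 9 were lower and 4 higher, beside 13.7% and 20.3% of all bodies, with a median difference of -2.37 points and none at least 10 points apart. MTBP, needed for origin firing, was at 30.0% and 28.5% in NC1235 against 19.3% and 17.6% in Si1235. MCM6, a subunit of the helicase, was at 90.9% and 86.0% in NC1235 against 83.5% and 73.5% in Si1235. Above NC1235 lay RECQL4, a helicase needed for firing, at 51.8% and 34.1% in NC1235 against 65.3% and 60.1% in Si1235. Of 26 replication fork genes 4 were lower, near the share of all bodies, and 2 higher, with a median difference of -0.74 points.

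Of the bodies named for the widest separation below NC1235, EDN2 (chr1:41478775-41484683), which encodes the peptide endothelin 2, came first at 59.4% and 50.6% in NC1235 against 10.5% and 0 in Si1235. DKK1 (chr10:52314281-52317657), a secreted inhibitor of WNT signalling, was at 29.2% and 29.1% in NC1235 and at 0 in both Si1235 libraries. STC1, the glycoprotein hormone stanniocalcin 1, was at 37.9% and 28.8% in NC1235 against 2.55% and 2.53% in Si1235. Its limma adjusted p was 0.00405 among bodies of at least 10 kb and 0.128 over all bodies. All 3 encode secreted proteins, and their bodies had little or no cover in Si1235. CASP14, a caspase of cornifying skin, was at 68.7% and 58.8% in NC1235 against 24.2% and 16.8% in Si1235. TM4SF1, a membrane protein with 4 passes, was at 73.1% and 69.0% in NC1235 against 38.2% and 39.6% in Si1235. BTG1, an antiproliferative gene, was at 54.3% and 59.0% in NC1235 against 27.9% and 29.7% in Si1235. In each of these genes every Si1235 library was below every NC1235 library by more than the replicates differed. Among long genes, NRP1, a co-receptor of semaphorins and VEGF, was at 22.4% and 14.9% in NC1235 against 5.83% and 5.41% in Si1235.

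In the other direction, COTL1 (chr16:84565596-84618078), an actin-binding protein, was at 38.7% and 21.7% in NC1235 against 87.7% and 74.3% in Si1235. KLHDC7B was at 0 in both NC1235 libraries and at 49.1% and 40.2% in Si1235, and so was RNF223, at 35.4% and 34.7% in Si1235. TYMP, thymidine phosphorylase, was at 7.94% and 6.02% in NC1235 against 55.5% and 40.03% in Si1235, and 15.9% of its body is shared with SCO2. In these genes NC1235 cover was below 10% or 0 in every library except those of COTL1. RFNG, a Notch-modifying sugar transferase, was at 15.0% and 0 in NC1235 against 59.5% and 50.4% in Si1235, and 22.5% of its body is shared with GPS1. CYP8B1, a bile acid hydroxylase, was at 31.8% and 10.4% in NC1235 against 70.8% and 63.3% in Si1235, with no H3K27ac or H2AZ peak at its locus in the means of either arm. DNAJB7, at 9.94% and 32.4% in NC1235 against 78.2% and 65.8% in Si1235, lies wholly inside XPNPEP3, so its cover cannot be told apart from that of the larger gene. KLF4 and FOSL1, transcription factors of epithelial and AP-1 programs, were each over 20 points apart. KLF4 was at 0 and 23.3% in NC1235 against 61.2% and 47.6% in Si1235, and FOSL1 at 28.8% and 4.48% in NC1235 against 62.5% and 57.3% in Si1235. Across the tested bodies, 31 were at 0 in both NC1235 libraries and covered in both Si1235 libraries, and 7 the reverse.

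COTL1 and DDX60L, described above, also passed limma at 10 kb or more (adjusted p = 0.0063 and 0.0156). The bodies that passed there and are not described above were 14 higher and 2 lower genes. None of them passed over all bodies. Of the higher ones SAMHD1, a phosphohydrolase that depletes nucleotides and restricts retroviruses, was at 59.6% and 40.5% in NC1235 against 85.6% and 79.8% in Si1235. UNC93B1, which carries nucleic acid-sensing Toll-like receptors to endosomes, was at 7.03% and 0 in NC1235 against 45.0% and 29.5% in Si1235. CD274, the gene of the immune checkpoint ligand PD-L1, was at 6.31% and 3.56% in NC1235 against 29.6% and 23.2% in Si1235 (limma adjusted p = 0.016). These 3 have roles in immunity, and each is outside the interferon list. VEGFA and PDGFA, growth factor genes, were at 75.6% and 72.8% and at 7.47% and 5.39% in NC1235. In Si1235 VEGFA was at 89.99% and 89.6% and PDGFA at 28.4% and 25.5%. The others were PEX6, KIF21B, TGM1, MOCOS, PKDCC, PTPRH, CEACAM19, GPR132 and C1R, with differences from 14.8 points in C1R to 36.1 points in PEX6. The 2 lower genes were ENPP5 and CROT, and CROT, a peroxisomal acyltransferase, was at 26.7% and 18.8% in NC1235 against 3.80% and 5.45% in Si1235.

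**Figure D4:**
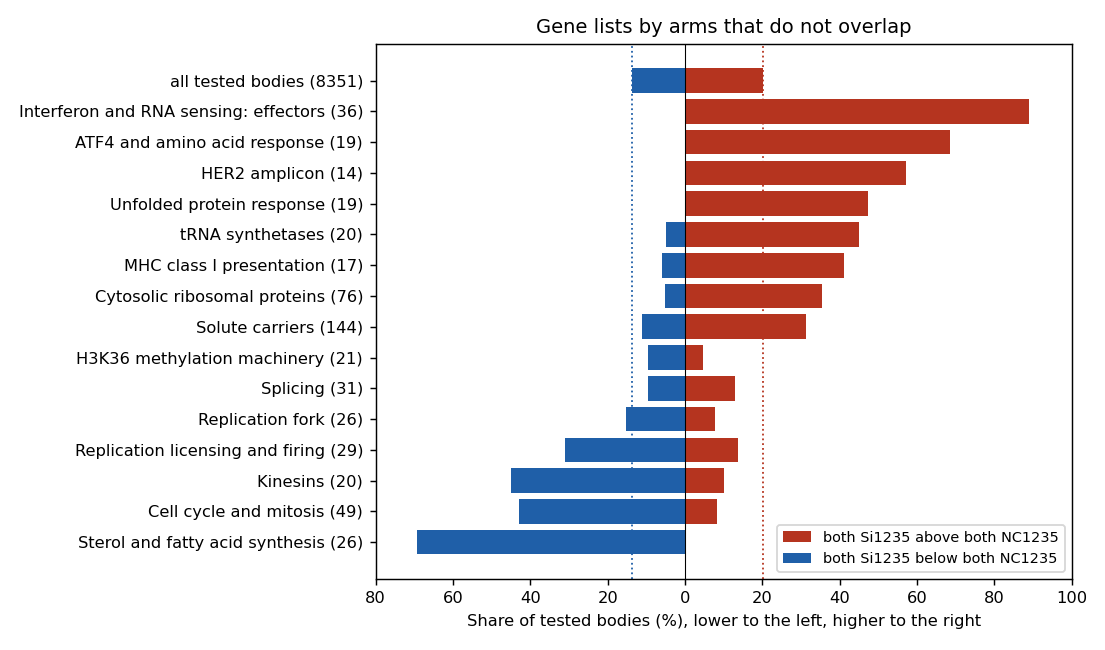
Share of the tested bodies of each list (number in brackets) whose arms do not overlap, with both Si1235 libraries above (right) or below (left) both NC1235 libraries. Dotted lines mark the shares over all tested bodies, 20.3% higher and 13.7% lower. Interferon effectors and ATF4 genes extend to the right, with 32 of 36 and 13 of 19, and sterol genes to the left, with 18 of 26.

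Cover did not separate over the genes of the enzymes that write and erase the mark. None of 5 tested writers and none of 4 tested erasers had arms that did not overlap, beside 34.0% of all bodies. These bodies were long, with medians of 148 and 156 kb beside 26.6 kb over all tested bodies. Cover of a gene's body does not measure the amount or activity of its enzyme. SETD2, the writer of H3K36me3, was at 45.6% and 33.0% in NC1235 against 40.9% and 33.5% in Si1235, a difference of -2.05 points (SE 6.97, limma adjusted p = 0.997). Of 12 readers 1 was higher (8.33%) and 2 lower (16.7%), beside 20.3% and 13.7% of all bodies, so the lower share is near that of all. PSIP1, which tethers factors to H3K36me3, was at 78.7% and 73.2% in NC1235 against 62.9% and 61.5% in Si1235.

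Genes of the amplified HER2 region on 17q12 were higher in 8 and lower in 0 of 14, beside 20.3% and 13.7% of all bodies. Their median difference was 3.43 points. ERBB2 was at 56.4% and 55.6% in NC1235 against 59.5% and 57.9% in Si1235, 2.72 points apart on average (SE 5.29). STARD3, a cholesterol transfer protein near it, was the member at least 10 points apart, at 44.1% and 39.2% in NC1235 against 61.4% and 55.8% in Si1235. The 8 bodies lie close together in the amplified region and are not independent. Cytosolic ribosomal protein genes were higher in 27 (35.5%) and lower in 4 (5.26%) of 76 (median difference 1.84 points), none at least 10 points apart. Solute carriers were higher in 45 (31.25%) and lower in 16 (11.1%) of 144, the lower share near that of all bodies. Kinesins, motors of which several act in mitosis, were lower in 9 (45%) and higher in 2 (10%) of 20. Splicing genes, with 4 higher and 3 lower of 31 and a median difference of 0.24 points, lay below the background share in both directions.

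Where the arms were at least 10 points apart, the difference in points was smallest at the start of the body, where cover was lowest too. Bodies with a known strand were cut into 10 equal segments, numbered from the start of the gene. The 102 at least 10 points higher had a mean cover of 2.74% in NC1235 against 8.40% in Si1235 in segment 1. In segment 8 the means were 34.2% in NC1235 against 70.8% in Si1235. The 48 bodies at least 10 points lower had 7.87% in NC1235 against 3.36% in Si1235 in segment 1, and 67.3% and 34.9% in segment 7. The bodies were chosen for their total difference, so the size of these means is a description, while their position along the body was not part of the choice. Over all 4735 tested bodies with a strand the arms differed by 1.06 points in segment 1, by at most 2.34 points in any segment (segment 2) and least in segment 10, by -0.10.

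**Figure D5:**
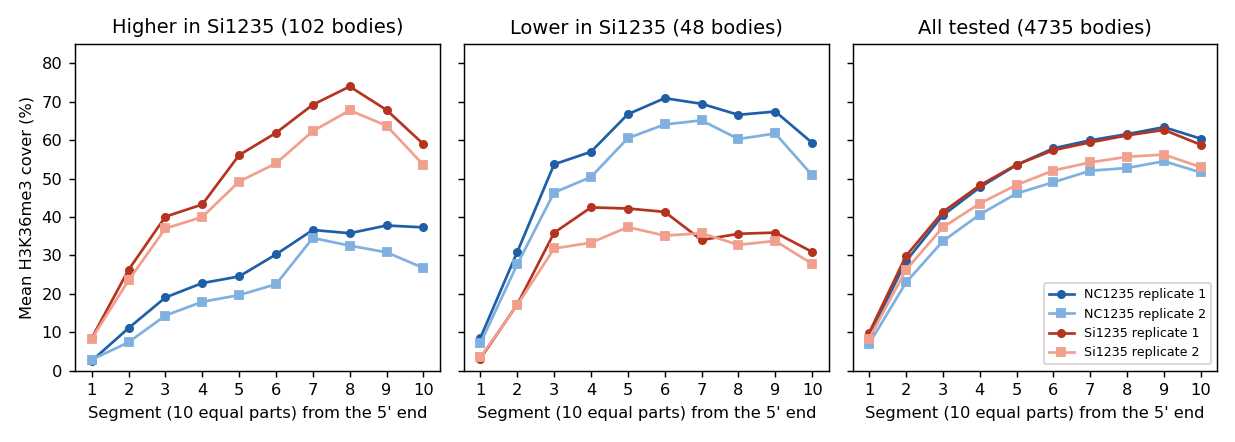
Mean H3K36me3 cover in each of 10 equal segments of the body, from the 5' end (1) to the 3' end (10), in each library for bodies at least 10 points higher in Si1235 (left), at least 10 points lower (middle) and all tested bodies with a known strand (right). In the left panel the arms separate most in segment 8, with means of 34.2% in NC1235 against 70.8% in Si1235, and in the middle panel in segment 7, with 67.3% and 34.9%.

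Bodies at least 10 points higher were short, with a median of 9.23 kb, beside 26.6 kb over all tested bodies and 21.4 kb for those at least 10 points lower. Of the higher bodies 52.1% were under 10 kb, against 20.1% of all. A short body needs fewer added bases for the same change in percent, and the part of length in these counts was not tested. Acetylation, a separate readout, was compared at the same loci. At the loci of these genes (body with 2.0 kb on each side), both H3K27ac libraries of Si1235 (a mark of active promoters and enhancers) were above the NC1235 pair in 57.3% of the higher bodies, 30.7% of all tested bodies and 10.0% of the lower bodies. They lay below in 6.77% of the higher, 19.5% of all and 42.5% of the lower bodies. The NC1235 H3K27ac lists came from scaled pileups, unlike the other lists of this mark, and their part in these shares was not tested. Of 7701 tested loci limma called 14 higher (0.182%) and 20 lower (0.26%) for H3K27ac, among them TYMP, at a mean H3K27ac cover of 74.0% in NC1235 against 92.4% in Si1235 (adjusted p = 0.046), and EDN2, at 48.4% and 28.5% (adjusted p = 0.0399). At DKK1 the mean H3K27ac cover was 76.3% in NC1235 against 76.0% in Si1235. For the histone variant H2AZ limma called 0 of 6828 loci higher (0.0%) and 1 lower (0.0146%). Its median difference was 0.21 points at higher bodies, 0.18 at lower bodies and 0.11 over all. H3K9ac, with 1 library per arm and no test, had a median difference of -0.52 points at higher bodies, 0.17 at lower bodies and -0.14 over all. By list, its median difference was -3.05 at interferon effectors, -1.63 at ATF4 genes and 0.77 at sterol and fatty acid genes. The median H3K27ac difference of these lists was 0.96, 0.72 and -0.40, so the 2 acetylation marks differed in direction there.

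Just inside the 10-point separation lay TMED6, whose arms were 10.0 points apart, and just outside it AKT1, at 9.97. At the cover minimum, KICS2 had a mean of 5.00% and RHEBL1, left out, 4.99%. At the length minimum, NDUFAF8 has a body of 2000 bp and KLHDC9, left out, of 1986 bp.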

How the data were processed

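The submitters' processing notes name hg38, Bowtie2 2.2.9 and MACS2, and with no stated role HTSeq 2.0.3 and DESeq2 1.22.2. The MACS2 version and the control are not given in the sources used here. Each library has its own deposited peak list, with a fold enrichment (a linear ratio over local background) and −log10 p and q values computed by the authors' peak caller. Peak intervals gave the cover, and the −log10 q was used for stricter lists. Merged intervals were set on RefSeq bodies with Python 3.11.15. Percent cover was tested with limma 3.58.1 in R 4.3.3 (intensity trend, no replicate term, Benjamini-Hochberg over 8351 bodies) in the 2 groups. On simulated libraries of 8351 bodies it recovered 0% of changes of 10 points, 13.5% of 20 points and 98.0% of 40 points. The simulation changed 200 bodies, with independent noise and no shift between replicates. In the data, differences above 40 points, such as 56.3 in CTH and 50.2 in HERC5, did not pass over all bodies. The simulated shares therefore do not describe these libraries, beyond that small changes could not pass. Strand came from the RefSeq promoter table, for 10869 of 18727 bodies. Named bodies were those with the widest separation, 6 per direction from 2 to under 20 kb and from 20 to under 100 kb and 3 of 100 kb or more, the most separated member of each list in each direction, and NFIB, ERBB2, SETD2 and LINC01235. Bodies sharing 20% or more with a named body were passed over. Other list members in the text were picked after their values were seen. Members and lists were chosen with earlier results of these data known. Lists carry no test and are set beside all tested bodies. Pileups and background were solved from fold and −log10 p of 1500 weak peaks per list within a tolerance of 0.002. Pileups were whole in 100% of peaks in each H3K36me3 list. H3K27ac pileups were whole in 100% of peaks in both Si1235 lists and in 0.733% and 12.7% in the NC1235 lists. The 2 input samples and the ChIRP sample, named NC1235, were not compared here.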

Additional observations from a re-analysis of the deposited data

How the results depend on the processing

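The 4 libraries limit every count, since arms of 2 libraries are separated in 34.0% of tested bodies. Total depth is not in the peak lists and was not modelled. Replicate 1 libraries covered more than replicate 2 libraries, and leaving out 1 library moved counts in the direction of that difference. Counts given as ranges leave out each library in turn, and the lone library is then assumed to vary like the others. Limma calls, 0 higher and 0 lower, became 65 and 28 after quantile normalization, 27 and 5 in bodies of at least 10 kb, and 14 to 106 higher and 4 to 23 lower without 1 library. Bodies with separated arms, 1693 higher and 1147 lower, became 1800 to 5050 higher without 1 library (5050 without NC1235 replicate 1, 3907 without Si1235 replicate 2) and 1249 to 4121 lower (4121 without NC1235 replicate 2, 2968 without Si1235 replicate 1). Quantile normalization moved the median difference to -0.51 points and gave 2323 lower, so that 45.0% of separated bodies were higher, against 59.6%. At 10 points or more, the 192 higher became 311 and 419 with peaks joined over gaps of 1 and 3 kb, 92 in bodies of at least 10 kb and 214 to 1053 without 1 library. The 80 lower became 127 with gaps of 3 kb joined, 197 after quantile normalization and 93 to 552 without 1 library. The higher share of these, 70.6%, was 56.8% after quantile normalization, 27.9% without NC1235 replicate 2, 42.4% without Si1235 replicate 1, 91.9% without NC1235 replicate 1 and 87.4% without Si1235 replicate 2. Interferon effectors that were lower numbered 1 at a −log10 q of at least 5, with gaps of 1 kb joined and after quantile normalization, and 0 to 2 without 1 library, while higher effectors numbered 32 to 35. Sterol genes that were higher numbered 1 at a −log10 q of at least 3, 1 and 3 with gaps of 1 and 3 kb joined, and 0 to 4 without 1 library, and lower ones 18 to 23. ATF4 genes that were lower numbered 1 after quantile normalization and 0 to 3 without 1 library, and higher ones 13 to 18. Cell cycle genes numbered 5 to 14 higher and 21 to 37 lower without 1 library. The medians of these 4 lists kept their sign under every alternative, from 13.6 to 19.9 points for effectors, 1.90 to 6.29 for ATF4 genes, -9.19 to -3.64 for sterol genes and -5.43 to -0.62 for cell cycle genes. The log2 ratio of covered length, 0.02, reached -0.12 without NC1235 replicate 2 and -0.08 without Si1235 replicate 1, up to 0.17, and the median cover difference, 1.72 points, reached -2.99 and -1.41, up to 6.44. The log2 ratio of peak number stayed between 0.11 and 0.23. Of 44 named bodies followed, MSMO1 changed sign, at 0.987 with gaps of 3 kb joined. In that setting 136 of the 192 bodies at least 10 points higher and 36 of the 80 lower ones stayed so. Their direction was kept in 190 and 76. The totals of 419 and 127 in that setting therefore hold other bodies in part. With gaps of 1 kb joined, 165 and 55 stayed at least 10 points apart. Replicate numbers were not taken as pairs, having only 2 pairs (correlation 0.296 of same-numbered deviations); with the replicate block limma called 0, with 1839 at an unadjusted p under 0.05 and a lowest adjusted p of 0.0627. The cause of each change was not tested.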
